A study of Homo sapiens with 39 samples.

Results

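Glucose enters a cell through facilitative transporters and is broken down to pyruvate by the glycolytic enzymes. Pyruvate then leaves as lactate, made by lactate dehydrogenase and exported by monocarboxylate transporters, or enters the mitochondria, a step that the pyruvate dehydrogenase kinases restrain. Many of these genes are known targets of the hypoxia-inducible factors HIF-1 and HIF-2, whose alpha subunits are marked for degradation by the EGLN prolyl hydroxylases when oxygen is present. Prostate epithelium is also known for its polyol metabolism, in which sorbitol dehydrogenase, the product of the androgen-responsive gene SORD, oxidizes sorbitol to fructose. The 39 genes described here were taken as a named list of these roles from 63187 genes in the deposited table, and every one was found by its symbol. They are 4 glucose transporters, 14 glycolytic enzymes, 3 enzymes of fructose-2,6-bisphosphate, 7 genes of lactate and pyruvate handling, 6 hypoxia targets, 4 genes of oxygen sensing and SORD.

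RNA was measured by stranded mRNA sequencing in C4-2B, an established castration-resistant human prostate cancer line, so each group is a culture of 1 cell line in serum-containing RPMI 1640 medium. In the first experiment, a panel of 21 libraries, cells were treated for 5 days with DMSO vehicle, 5 µM abiraterone acetate, 20 µM enzalutamide, 1 µM olaparib, 10 nM talazoparib, abiraterone plus olaparib or enzalutamide plus talazoparib. In the other, a time course of 18 libraries, cells received DMSO or olaparib at 1 or 5 µM for 1 or 5 days. Each of the 13 groups had 3 libraries. Abiraterone, which blocks androgen synthesis, and enzalutamide, which blocks androgen signalling, are the hormonal drugs called ARPi, and olaparib and talazoparib are PARP inhibitors (PARPi).

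Library depth, taken as the sum of counts over genes, ranged from 26932205 to 49833473, and the median library held 37223200. All 11 prostate epithelial markers lay at or above 1 CPM (counts scaled to a common library size) in every library, whereas COL1A2, DCN, LUM, CD3E, MS4A1, PECAM1 and CDH5, which define other cell types, were at 0.326 CPM or less. The leukocyte marker PTPRC was at 1.17 CPM or less, and PDGFRB of the fibroblast list at 1.04 to 2.43 CPM. The summed level of 4 leukocyte markers, which was almost all CD68, was 4.38 to 7.10 CPM with panel DMSO, 14.2 to 15.7 CPM with panel olaparib and 13.0 to 13.6 CPM with talazoparib. On day 5 of the time course it was 5.61 to 6.35 CPM with DMSO, 15.3 to 16.8 CPM with 1 µM olaparib and 27.0 to 29.6 CPM with 5 µM. On day 1 it was 4.97 to 6.42 CPM with DMSO and 4.46 to 5.42 CPM with 5 µM olaparib. The sum of 5 fibroblast markers, mainly COL1A1, was 11.9 to 16.0 CPM with panel DMSO and 19.4 to 21.2 CPM with an ARPi alone, and that of 3 endothelial markers, almost all VWF, was 13.9 to 16.4 CPM with panel DMSO and 20.7 to 21.3 CPM with abiraterone but 11.6 to 12.7 CPM with enzalutamide. The sum of 3 neuroendocrine markers was 2.25 to 2.72 CPM with panel DMSO and lower in every other panel group, at 0.901 to 1.75 CPM, and 1.26 to 2.10 CPM in the time course. Mitochondrial genes held 9.68 to 10.1% of counts with panel DMSO, 10.9 to 12.3% with an ARPi alone, 12.1 to 13.0% with a PARPi alone and 13.2 to 13.8% in the combinations. Whether these lists or that share had a part in the results was not tested. Summed prostate epithelial markers were 5083 to 5302 CPM with panel DMSO, 3590 to 3675 CPM with abiraterone and 3319 to 3367 CPM with enzalutamide. In the time course, which was scaled separately, they were 4503 to 4551 CPM with DMSO and 5818 to 5907 CPM with 5 µM olaparib on day 5. On day 1 they were 4109 to 4193 CPM with DMSO and 3696 to 3756 CPM with 5 µM olaparib. In these bulk samples, fewer cells of a kind and less RNA per cell cannot be told apart. Nothing states that the libraries of a group came from separate cultures, so the p-values measure the spread between libraries, which may be technical.

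Levels are given as CPM scaled by edgeR's TMM method within each experiment, and fold changes and their standard errors (SE) come from edgeR's quasi-likelihood test, with Benjamini-Hochberg adjustment over all genes tested. A gene is said to rise or fall where that adjusted p was under 0.05. In each experiment 37 of the 39 genes passed the filter on low counts. PDK4, a pyruvate dehydrogenase kinase, passed in neither, the vascular peptide gene ADM did not pass in the panel and the carbonic anhydrase gene CA9 did not pass in the time course. None of these had more than 14 counts in a library. SLC2A3 and SLC2A10 passed the filter in the panel through groups without an ARPi, as they held at most 4 counts in any library with one.

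With panel DMSO, the level per kilobase of transcript (CPM per kb) spanned a wide range. GAPDH, the glyceraldehyde phosphate dehydrogenase, stood first at 2311 ± 55.4 CPM per kb (SD, n = 3). It was followed by the enolase ENO1 at 674 ± 23.7 CPM per kb and the triose phosphate isomerase TPI1 at 596 ± 14.2 CPM per kb. The lactate dehydrogenases LDHA, at 492 ± 40.5 CPM per kb, and LDHB, at 468 ± 8.32 CPM per kb, came next, and their ranges overlapped. The pyruvate kinase PKM reached 442, the aldolase ALDOA 378 and SORD 303 CPM per kb, and their ranges did not overlap. The main glucose transporter SLC2A1 ranked 26 at 14.2 CPM per kb beside the hexokinase HK2 at 14.8 CPM per kb, with overlapping ranges. HIF1A, the HIF-1 alpha subunit, lay at 48.2 CPM per kb and EPAS1, the HIF-2 alpha subunit, at 0.246 CPM per kb. ADM, CA9 and PDK4 were the lowest.

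The libraries of 1 group differed more in the panel than in the time course. Over the 33 genes with a mean of at least 1 CPM in every group, the pooled SD between replicates on the log2 scale had a median of 0.0586 in the panel and 0.0321 in the time course. It was 0.104 against 0.0222 for LDHA, 0.112 against 0.0259 for the phosphoglycerate kinase PGK1, 0.159 against 0.0393 for the aldolase ALDOC and 0.148 against 0.0388 for BNIP3, a mitophagy receptor induced by hypoxia. In panel DMSO, replicate 1 was the highest and replicate 3 the lowest for ALDOC, with 59.6, 49.3 and 41.1 CPM in replicates 1, 2 and 3. BNIP3 had 220, 194 and 159 CPM and PGK1 681, 600 and 514 CPM in the same libraries. Over the panel, deviations from the group mean correlated with those of PGK1 at 0.975 for BNIP3, 0.932 for ALDOC and 0.192 for SORD. Calls of genes that move together in this way are not independent.

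**Figure D1:**
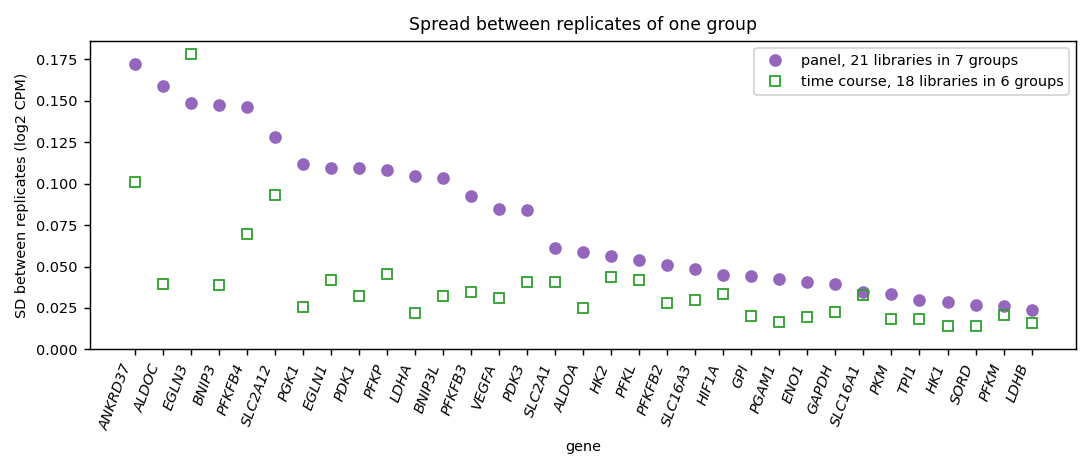
SD of log2 CPM between replicates of a group, pooled over groups, for each of 33 genes (horizontal axis), in the panel (filled circles) and the time course (open squares). The panel point lies above the time course point for all other genes, with LDHA at 0.104 against 0.0222 and EGLN3 the 1 exception of the 33.

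Promoter stretches of 5 genes that moved with the drugs are shown because they hold the core of the hypoxia response element, ACGTG or GCGTG, searched on both strands in the 250 bases before each RefSeq start (GRCh38.p14). The core is in capitals, on either strand; CACGTG is also an E-box, and ACGTG matches inside it on both strands. The genes SLC2A3, PFKFB2, SLC16A1, VEGFA, BNIP3L and SORD had no match in the RefSeq table, which left 33 of 39. The stretch of PGK1 (chrX:78104032-78104074, plus strand) runs from 216 to 174 bases before the start, and that of LDHA (chr11:18394373-18394499, plus strand) from 190 to 64 bases. That of BNIP3 (chr10:131982018-131982071, minus strand) runs from 148 to 95 bases, that of ALDOC (chr17:28576914-28577008, minus strand) from 113 to 19 bases and that of ANKRD37 (chr4:185396674-185396707, plus strand) from 167 to 134 bases. The PGK1 and ANKRD37 stretches, and part of the ALDOC one, lie inside the gene as longer GENCODE models draw it, and those of LDHA and BNIP3 lie outside it.
PGK1: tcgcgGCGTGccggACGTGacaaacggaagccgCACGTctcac
LDHA: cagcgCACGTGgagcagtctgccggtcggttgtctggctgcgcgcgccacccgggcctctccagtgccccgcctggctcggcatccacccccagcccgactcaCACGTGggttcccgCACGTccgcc
BNIP3: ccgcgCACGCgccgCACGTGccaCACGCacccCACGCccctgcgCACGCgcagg
ALDOC: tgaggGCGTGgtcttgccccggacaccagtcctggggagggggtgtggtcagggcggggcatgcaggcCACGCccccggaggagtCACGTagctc
ANKRD37: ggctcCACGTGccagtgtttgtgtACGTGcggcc
A core was present in at least 1 promoter of 26 of the 33 matched genes (78.79%), against 12945 of 27305 genes in the whole table (47.41%). Counted by promoter window it was 34 of 60 (56.67%) against 15172 of 35116 (43.21%). The median GC content of the windows was 68.4% for the listed genes and 58% for all. A match is a description of the letters only. EGLN3, LDHB, PDK4, PGAM1, PKM, SLC2A1 and SLC2A12 had no core in the window.

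The ARPi lowered most of these genes. With abiraterone, 28 of the 37 genes tested changed, where 52.9% of all genes tested did. Of these 26 fell, against 27.1% of all genes, and 2 rose, against 25.8%. With enzalutamide 29 changed, against 53.3% of all genes, of which 26 fell, against 26.3%, and 3 rose, against 27.0%. Their median log2 fold change was -0.33 with either drug, and that of all genes was 0.00 with abiraterone and 0.02 with enzalutamide. These counts include SLC2A3 and SLC2A10, which were tested only because groups without an ARPi were high, so that their fall was fixed by the filter. Without them and CA9, all of which had under 10 counts in every library of a compared group, 24 of 34 genes fell with each drug, and the medians were both -0.30. Of the called genes, 25 of 28 with abiraterone and 27 of 29 with enzalutamide stayed called in every fit that left out 1 library. The glucose transporters SLC2A1 and SLC2A12 fell with each drug, as did all 6 tested genes of lactate and pyruvate handling, and SLC2A3 and SLC2A10 are described by their counts. Among the 14 glycolytic enzymes, 8 fell and 2 rose with abiraterone, and 9 fell and 2 rose with enzalutamide.

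**Figure D2:**
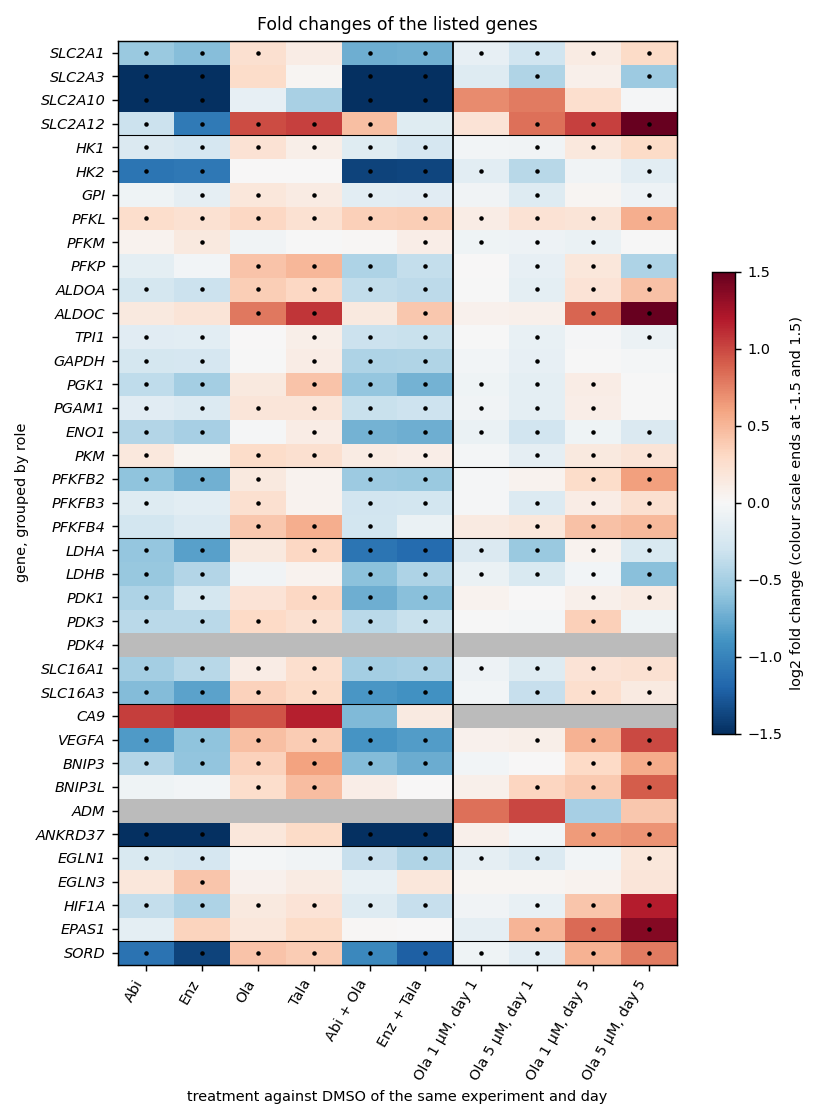
Log2 fold change (colour) of each tested gene (rows, grouped by role) in each comparison of a treatment with DMSO of its experiment and day (columns), with a mark where the adjusted p was under 0.05. The columns with an ARPi are mostly on the lower side, and the 5-day PARPi columns mostly on the higher side.

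SLC2A3, a high-affinity glucose transporter (ENSG00000059804.17, chromosome 12, 7919230 to 8019007, minus strand, GRCh38), had 129, 131 and 165 counts in the DMSO libraries, or 4.38, 3.81 and 4.18 CPM. The abiraterone libraries held 0, 1 and 1 counts, and the ratio of pooled CPM was 202-fold lower, with a 95% counting interval of 55.7 to 1676. The enzalutamide libraries held 0, 0 and 0 counts, which put the level at least 157-fold lower at a floor of 3 counts over the group. Every library with an ARPi lay far below every library without one, and such intervals and floors cover counting error only. Abiraterone plus olaparib left 1, 0 and 0 counts and enzalutamide plus talazoparib 0, 2 and 1 counts. The PARPi libraries did not share this loss, with 209, 160 and 172 counts for olaparib and 156, 161 and 196 counts for talazoparib. The near-identical copy SLC2A14 held 2.73% as many counts as SLC2A3 over all libraries, and how reads common to both were divided was not tested.

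SLC2A10, another transporter (ENSG00000197496.6, chromosome 20), had 37, 35 and 40 counts with DMSO. It had 0, 1 and 1 counts with abiraterone, a ratio 53.3-fold lower with a counting interval of 14.4 to 446, and 4, 0 and 4 counts with enzalutamide, 15.5-fold lower with an interval of 7.59 to 36.7. All libraries with either ARPi were below all DMSO libraries. SLC2A12, a transporter that is androgen-responsive in prostate cells, had 10.8, 8.06 and 7.60 CPM with DMSO, 7.09, 6.48 and 7.36 CPM with abiraterone and 4.24, 3.87 and 4.48 CPM with enzalutamide. The enzalutamide change was -1.06 on the log2 scale (SE 0.10, edgeR adjusted p = 7.5e-11), and its libraries were all below DMSO. The abiraterone change of -0.33 (SE 0.099, adjusted p = 0.0055) rested on DMSO replicate 1, without which it was -0.17 and no longer called. SLC2A1 fell from 49.6, 46.6 and 47.7 CPM to 32.4, 33.4 and 32.3 CPM with abiraterone, a log2 fold change of -0.55 (SE 0.049). With enzalutamide it had 29.4, 31.5 and 31.3 CPM, a change of -0.64 (SE 0.048), and neither group overlapped DMSO.

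HK2, the inducible hexokinase that traps glucose in the cell (ENSG00000159399.10, chromosome 2, 74834127 to 74893359, plus strand), had 86.9, 82.1 and 80.4 CPM with DMSO. It was at 39.6, 37.9 and 38.6 CPM with abiraterone and at 39.59, 39.01 and 39.57 CPM with enzalutamide. The groups did not overlap, and HK2 was 2.15-fold lower with abiraterone (log2 fold change -1.10, SE 0.043, edgeR adjusted p = 1.4e-21) and 2.11-fold lower with enzalutamide (-1.08, SE 0.043). The constitutive hexokinase HK1 fell by 0.22 and 0.25 on the log2 scale. ENO1 fell by 0.43 with abiraterone and 0.50 with enzalutamide, and GAPDH by 0.27 and 0.26. The phosphofructokinase PFKL was an exception and rose by 0.27 (SE 0.039) and 0.22 (SE 0.039). PKM had 1054, 1015 and 985 CPM with DMSO and 1126, 1123 and 1145 CPM with abiraterone, a log2 fold change of 0.15 (SE 0.025, adjusted p = 2.7e-06) without overlap. With enzalutamide PKM had 1046, 1078 and 1026 CPM, which overlapped DMSO, and did not pass (0.05, adjusted p = 0.13).

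LDHA, which makes lactate from pyruvate (ENSG00000134333.15, chromosome 11, 18394560 to 18408425, plus strand), had 1168, 1140 and 998 CPM with DMSO. It had 691, 731 and 794 CPM with abiraterone and 650, 663 and 570 CPM with enzalutamide. All 6 treated libraries were below all DMSO libraries, with log2 fold changes of -0.58 (SE 0.085, edgeR adjusted p = 3.0e-05) and -0.81 (SE 0.085, adjusted p = 7.4e-07). LDHB, the isoform that favours pyruvate, fell from 617, 615 and 597 CPM to 413, 407 and 418 CPM with abiraterone (-0.56, SE 0.023) and to 439, 456 and 449 CPM with enzalutamide (-0.44, SE 0.023). The lactate exporter SLC16A3 fell by 0.65 and 0.80 and the monocarboxylate transporter SLC16A1 by 0.51 and 0.41. PFKFB2, which makes and breaks the glycolytic activator fructose-2,6-bisphosphate, had 68.4, 67.8 and 69.6 CPM with DMSO. It had 43.7, 46.4 and 45.3 CPM with abiraterone (-0.61, SE 0.041) and 43.1, 40.7 and 41.2 CPM with enzalutamide (-0.72, SE 0.041), both without overlap.

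Of 5 tested hypoxia targets 3 fell with each ARPi, namely ANKRD37, VEGFA and BNIP3, where 27.1% of all genes fell with abiraterone and 26.3% with enzalutamide. ANKRD37, a HIF-1 target of unsettled function, had 7.71, 6.43 and 5.83 CPM with DMSO, 2.44, 1.91 and 2.40 CPM with abiraterone and 1.93, 1.32 and 1.60 CPM with enzalutamide. It was 2.94-fold and 4.14-fold lower (log2 fold changes -1.56, SE 0.14, and -2.05, SE 0.14), and the groups did not overlap. VEGFA, the angiogenic growth factor, had 193, 155 and 156 CPM with DMSO, 88.1, 96.6 and 94.9 CPM with abiraterone and 117, 106 and 110 CPM with enzalutamide, with changes of -0.85 (SE 0.070) and -0.60 (SE 0.069). BNIP3 had 131, 140 and 150 CPM with abiraterone and 137, 127 and 116 CPM with enzalutamide, below the 159 to 220 CPM of DMSO, with changes of -0.44 (SE 0.12, edgeR adjusted p = 0.0066) and -0.59 (SE 0.12, adjusted p = 0.00073). In a fit of abiraterone and DMSO alone, the calls of BNIP3 (-0.43) and PGK1 (-0.37) were lost. Its relative BNIP3L, at 120, 124 and 125 CPM with abiraterone and 131, 126 and 117 CPM with enzalutamide, overlapped the 144, 130 and 112 CPM of DMSO and did not pass with either drug. CA9 held 3, 8 and 1 counts with DMSO, 3, 8 and 13 counts with abiraterone and 9, 11 and 9 counts with enzalutamide. Its pooled CPM was 2.10-fold higher with abiraterone (95% counting interval 1.01 to 4.61) and 2.19-fold higher with enzalutamide (1.08 to 4.70), and neither change passed the test between libraries (edgeR adjusted p = 0.21 and 0.17).

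HIF1A (ENSG00000100644.17, chromosome 14, 61695513 to 61748259, plus strand) had 191, 189 and 190 CPM with DMSO, 148, 146 and 149 CPM with abiraterone and 143, 134 and 136 CPM with enzalutamide. The log2 fold changes were -0.36 (SE 0.034) and -0.47 (SE 0.033), with no overlap. EPAS1 stayed under 2.1 CPM in all of these libraries, with 1.39, 1.46 and 0.962 CPM for DMSO, 0.959, 1.37 and 1.11 CPM for abiraterone and 1.23, 1.46 and 2.03 CPM for enzalutamide, and neither change passed. EGLN3, a prolyl hydroxylase that is itself induced by hypoxia, rose by 0.42 with enzalutamide (SE 0.11, edgeR adjusted p = 0.0013) and had 0.17 with abiraterone (adjusted p = 0.20). EGLN3 overlaps SPTSSA, a far more abundant gene on the same strand, and its counts are uncertain.

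The kinases PDK1 and PDK3, which inactivate pyruvate dehydrogenase, fell by 0.46 (SE 0.090) and 0.41 (SE 0.065) with abiraterone and by 0.26 (SE 0.089) and 0.41 (SE 0.065) with enzalutamide, and the PDK1 call with enzalutamide was lost without DMSO replicate 1 (-0.23) or 2 (-0.24) and without enzalutamide replicate 3 (-0.22). PGK1 fell by 0.39 (SE 0.091) and 0.51 (SE 0.091), and the phosphoglycerate mutase PGAM1 by 0.17 and 0.21. PFKFB3, a bifunctional enzyme that raises fructose-2,6-bisphosphate, fell with abiraterone (-0.20, SE 0.070) but had -0.16 with enzalutamide and did not pass. Its abiraterone call was lost without DMSO replicate 1 (-0.14) or 2 (-0.19) and without abiraterone replicate 1 (-0.18) or 2 (-0.18). PFKFB4 had -0.28 and -0.20, PFKP -0.14 and -0.04, and neither gene passed with either drug. The muscle-type phosphofructokinase PFKM rose with enzalutamide (0.14, SE 0.026) and not detectably with abiraterone (0.05). EGLN1 fell by 0.23 and 0.25, and both calls were lost without DMSO replicate 1 (-0.23 and -0.25) or 3 (-0.21 and -0.23). The first was also lost without abiraterone replicate 2 (-0.23) or 3 (-0.20), and the other without enzalutamide replicate 1 (-0.17).

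SORD (ENSG00000140263.15, chromosome 15, 45023147 to 45077185, plus strand) had 3 close libraries in each group. The DMSO libraries had 1476, 1465 and 1444 CPM, those with abiraterone 690, 664 and 678 CPM and those with enzalutamide 551, 569 and 555 CPM. It was 2.16-fold lower with abiraterone (log2 fold change -1.11, SE 0.023, edgeR adjusted p = 5.8e-30) and 2.62-fold lower with enzalutamide (-1.39, SE 0.023, adjusted p = 5.7e-33). The copy SORD2P held 0.466% as many counts as SORD.

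**Figure D3:**
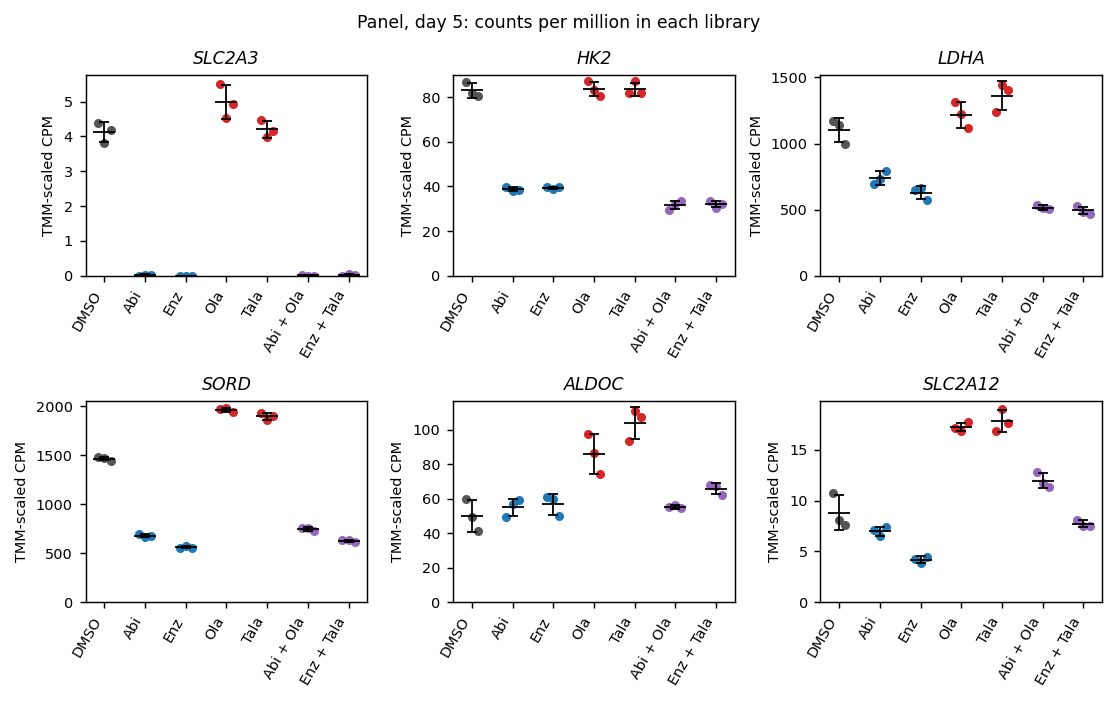
TMM-scaled CPM in each panel library (points) for SLC2A3, HK2, LDHA, SORD, ALDOC and SLC2A12, by treatment, with the mean and SD of 3 libraries as bars. SLC2A3 is near 0 in the 4 groups with an ARPi, and SORD lies between 551 and 761 CPM there and at 1444 CPM or above elsewhere.

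After 5 days of a PARPi most of these genes were higher, by small amounts. With 1 µM olaparib, 21 of 37 genes changed, where 35.6% of all genes tested did. All 21 rose, against 19.6% of all genes, and 0 fell by edgeR, against 16.0%. With 10 nM talazoparib 24 changed, against 33.8% of all genes, and all 24 rose, against 18.4%, with 0 falling by edgeR, against 15.4%. Among falls, only that of LDHB with olaparib had an unadjusted p under 0.05 (log2 fold change -0.05, edgeR adjusted p = 0.065). The median log2 fold change was 0.21 with olaparib and 0.24 with talazoparib, and 0.02 over all genes with either. With scaling by total counts 19 rose and 2 fell with olaparib, the falls being PFKM (-0.09) and LDHB (-0.09), and 20 rose and 0 fell by edgeR with talazoparib. Over all genes 15.5% then rose and 20.6% fell with olaparib, and 13.7% and 20.6% with talazoparib. Of the called genes, 15 of 21 and 18 of 24 stayed called in every fit that left out 1 library. With olaparib, the call of PFKFB3 (0.25) was lost without DMSO replicate 3 (0.17) or olaparib replicate 1 (0.14), and that of SLC16A1 (0.11) without olaparib replicate 1 (0.07). With talazoparib, those of ENO1 (0.11) and GPI (0.12) were lost without talazoparib replicate 2 (0.08 for both), that of HK1 (0.09) without talazoparib replicate 1 (0.07), that of PDK1 (0.31) without DMSO replicate 3 (0.25) or talazoparib replicate 2 (0.26) and that of TPI1 (0.09) without talazoparib replicate 2 or 3 (0.07 for both).

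SLC2A12 changed most among the 4 listed transporters, with 17.2, 16.9 and 17.7 CPM for olaparib and 16.9, 19.1 and 17.6 CPM for talazoparib. All of these were above the 7.60 to 10.8 CPM of DMSO, with log2 fold changes of 0.98 (SE 0.090, edgeR adjusted p = 6.8e-11) and 1.03 (SE 0.089, adjusted p = 2.3e-11). SLC2A1 had 59.5, 56.6 and 53.3 CPM with olaparib, above DMSO (0.24, SE 0.046, adjusted p = 8.2e-05), and 50.8, 54.5 and 49.9 CPM with talazoparib, which did not pass (0.11, adjusted p = 0.062). SLC2A3 and SLC2A10 passed with neither drug.

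The aldolase ALDOC, expressed mainly in brain and induced by hypoxia, had the largest rise of the 14 listed glycolytic enzymes with each PARPi of the panel. It had 97.5, 86.6 and 74.2 CPM with olaparib and 93.4, 111 and 108 CPM with talazoparib, all above the DMSO maximum of 59.6 CPM. The log2 fold changes were 0.80 (SE 0.13, edgeR adjusted p = 0.00015) and 1.07 (SE 0.13, adjusted p = 8.1e-06). RSKR overlaps ALDOC on the same strand and held 9.99% as many counts. ALDOA rose from 650, 608 and 604 CPM to 854, 787 and 766 CPM with olaparib (0.37, SE 0.046) and 763, 797 and 750 CPM with talazoparib (0.31, SE 0.045), without overlap. PKM rose to 1265, 1221 and 1199 CPM with olaparib (0.27, SE 0.025) and 1170, 1222 and 1202 CPM with talazoparib (0.24, SE 0.025). HK2 was level with DMSO, at 87.2, 83.1 and 80.7 CPM with olaparib and 81.7, 87.0 and 82.1 CPM with talazoparib. Its log2 fold change was 0.01 with each drug, and the 95% interval was -0.07 to 0.09 for both.

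LDHA overlapped DMSO with olaparib, at 1311, 1222 and 1118 CPM, and did not pass (0.14, SE 0.084, edgeR adjusted p = 0.22). With talazoparib it had 1238, 1445 and 1404 CPM, above all DMSO libraries (0.31, SE 0.084, adjusted p = 0.011). That call was lost without DMSO replicate 3 (0.24), without talazoparib replicate 2 (0.25) and without talazoparib replicate 3 (0.27). Among the regulators, PFKFB4 rose with olaparib (0.40, SE 0.11) and talazoparib (0.55, SE 0.11), and PFKP by 0.43 (SE 0.086) and 0.49 (SE 0.085), while the olaparib call of PFKFB4 was lost without olaparib replicate 1 (0.30). PGK1 rose with talazoparib (0.43, SE 0.091) and had 0.14 with olaparib, which did not pass. SLC16A3 rose with olaparib (0.35, SE 0.036) and talazoparib (0.29, SE 0.036). LDHB had 591, 584 and 588 CPM and 612, 633 and 646 CPM and passed with neither. PFKFB2 had 73.8, 76.1 and 77.9 CPM with olaparib (0.15, SE 0.039, adjusted p = 0.0035), a call lost without olaparib replicate 3 (0.11), and 74.0, 68.8 and 71.1 CPM with talazoparib, where it did not pass.

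VEGFA rose to 235, 231 and 222 CPM with olaparib (0.45, SE 0.067, edgeR adjusted p = 5.7e-05) and to 221, 227 and 208 CPM with talazoparib (0.38, SE 0.067), all above the DMSO maximum of 193 CPM. BNIP3 with talazoparib was at 262, 319 and 288 CPM, above DMSO (0.61, SE 0.12, adjusted p = 0.00094). With olaparib it was at 279, 238 and 209 CPM, which overlapped DMSO (0.35, SE 0.12, adjusted p = 0.035), and the call was lost without DMSO replicate 2 (0.36) or 3 (0.23) and without olaparib replicate 1 (0.21) or 2 (0.34). BNIP3L, another mitophagy receptor, had 166, 157 and 139 CPM with olaparib (0.26, SE 0.084, adjusted p = 0.023), which overlapped DMSO and was not called without DMSO replicate 2 (0.27) or 3 (0.17) or olaparib replicate 1 (0.19) or 2 (0.23). With talazoparib it had 163, 185 and 184 CPM, above all DMSO libraries (0.47, SE 0.083, adjusted p = 0.00039). In fits of 1 PARPi and DMSO alone, the talazoparib calls of BNIP3 (0.59), VEGFA (0.37), LDHA (0.29) and PGK1 (0.41) and the olaparib calls of BNIP3 (0.33), BNIP3L (0.25) and PFKFB4 (0.39) were lost. ANKRD37 did not pass with olaparib (8.50, 7.06 and 6.76 CPM) or talazoparib (8.10, 8.04 and 8.12 CPM).

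HIF1A had 210, 214 and 209 CPM with olaparib and 212, 211 and 235 CPM with talazoparib, above all DMSO libraries (0.15, SE 0.033, and 0.21, SE 0.033). EPAS1, at 1.37, 1.58 and 1.32 CPM and at 1.35, 1.49 and 1.78 CPM, passed with neither. SORD rose to 1967, 1977 and 1935 CPM with olaparib (0.42, SE 0.022, edgeR adjusted p = 8.8e-17) and to 1930, 1862 and 1895 CPM with talazoparib (0.38, SE 0.022), and the groups did not overlap DMSO.

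When an ARPi and a PARPi were combined, most of the genes were below DMSO, as with the ARPi alone. With abiraterone plus olaparib, 31 of 37 genes changed against DMSO, where 62.2% of all genes did. Of these 28 fell, against 31.1% of all genes, and 3 rose, against 31.1%. With enzalutamide plus talazoparib 31 changed, against 62.4% of all genes, of which 27 fell, against 31.3%, and 4 rose, against 31.2%. Without SLC2A3, SLC2A10 and CA9, 26 and 25 of 34 fell. SLC2A12 was on the side of the PARPi with abiraterone plus olaparib, at 0.45 (SE 0.093) against DMSO. The fall of PFKFB4 with that pair (-0.28) was lost in 4 of the 6 fits that left out a library (-0.31 to -0.14). HK2 had 29.6, 32.2 and 33.3 CPM with the first pair and 33.3, 30.5 and 32.2 CPM with the other, lower than every library of either ARPi alone. It was 2.62-fold and 2.59-fold lower than with DMSO. LDHA had 536, 511 and 502 CPM and 527, 484 and 471 CPM, 2.13-fold and 2.23-fold lower than DMSO. SORD had 761, 756 and 722 CPM and 631, 630 and 608 CPM, slightly above the matching ARPi (log2 differences 0.14, SE 0.023, and 0.16, SE 0.023).

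Set against the ARPi alone, adding olaparib to abiraterone changed 14 genes, where 29.2% of all genes changed, and lowered 11, against 14.7%, and raised 3, against 14.4%. Adding talazoparib to enzalutamide changed 15, against 34.4% of all genes, and lowered 10, against 17.9%, and raised 5, against 16.5%. The genes raised in the first case were SLC2A12 (0.78, SE 0.096), HIF1A (0.17, SE 0.034) and SORD. In the other they were SLC2A12 (0.89, SE 0.10), PFKFB2 (0.17, SE 0.042), HIF1A (0.12, SE 0.034), PFKL (0.14, SE 0.038) and SORD. HIF1A had 173, 164 and 164 CPM with abiraterone plus olaparib and 144, 153 and 151 CPM with enzalutamide plus talazoparib, below DMSO in both. The lowered genes included LDHA (-0.52, SE 0.085, and -0.35, SE 0.085), HK2 (-0.29, SE 0.047, and -0.30, SE 0.045), ENO1 (-0.28 and -0.23) and GAPDH (-0.20 and -0.20). In the first case the calls of GPI, PDK1 and PFKP were lost in 2, 5 and 2 of the 6 fits that left out a library. In the other those of PFKP, PGAM1, SLC16A3 and VEGFA were lost in 1, 3, 3 and 3.

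An interaction term measured how far each combination lay from the added log2 fold changes of its drugs. For abiraterone with olaparib it was called in 21 of 37 genes, where 12.8% of all genes were called. It was negative in all 21, against 8.08% of all genes, and positive in 0 by edgeR, against 4.74%. For enzalutamide with talazoparib it was called in 19, against 12.6% of all genes, negative in all 19, against 7.28%, and positive in 0 by edgeR, against 5.32%. The value was below 0 in 32 and 33 of the 34 genes left without SLC2A3, SLC2A10 and CA9, called or not, and over all 37 the unadjusted p was under 0.05 for 26 and 25 genes. Of the called interactions, 17 of 21 and 17 of 19 stayed called whichever of the 12 libraries was left out. Beside BNIP3, the first pair lost PDK1 (-0.48) in 5 of these fits, PDK3 (-0.30) in 7 and PFKFB3 (-0.33) in 4, and the other lost BNIP3L (-0.42) in 9 and GPI (-0.16) in 5.

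The largest called departures with abiraterone and olaparib were those of ALDOC (-0.79, SE 0.18, edgeR adjusted p = 0.011), the phosphofructokinase PFKP (-0.75, SE 0.13), LDHA (-0.66, SE 0.12, adjusted p = 0.0020) and SLC16A3 (-0.56, SE 0.053, adjusted p = 2.5e-09). BNIP3 had -0.56 (SE 0.17, adjusted p = 0.047), a call lost in 10 of the 12 fits that left out a library, all but those without DMSO replicate 1 and olaparib replicate 3, with values of -0.61 to -0.44. With enzalutamide and talazoparib ALDOC had -0.85 (SE 0.18), PFKP -0.81 (SE 0.12), BNIP3 -0.76 (SE 0.17), the kinase PDK1 -0.68 (SE 0.12) and LDHA -0.65 (SE 0.12, adjusted p = 0.0022). ALDOC itself had 55.0, 56.1 and 54.3 CPM with abiraterone plus olaparib, within the range of DMSO. It had 67.8, 67.3 and 62.0 CPM with enzalutamide plus talazoparib, above DMSO (0.41, SE 0.13, adjusted p = 0.013), and that call was lost without DMSO replicate 3 (0.28) and in a fit of these groups alone (0.41). The transporter SLC2A12 did not depart detectably from the sum, at -0.20 (SE 0.13, adjusted p = 0.37) and -0.14 (SE 0.14, adjusted p = 0.57), and had 12.8, 11.8 and 11.3 CPM and 8.12, 7.54 and 7.52 CPM in the combinations.

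**Figure D4:**
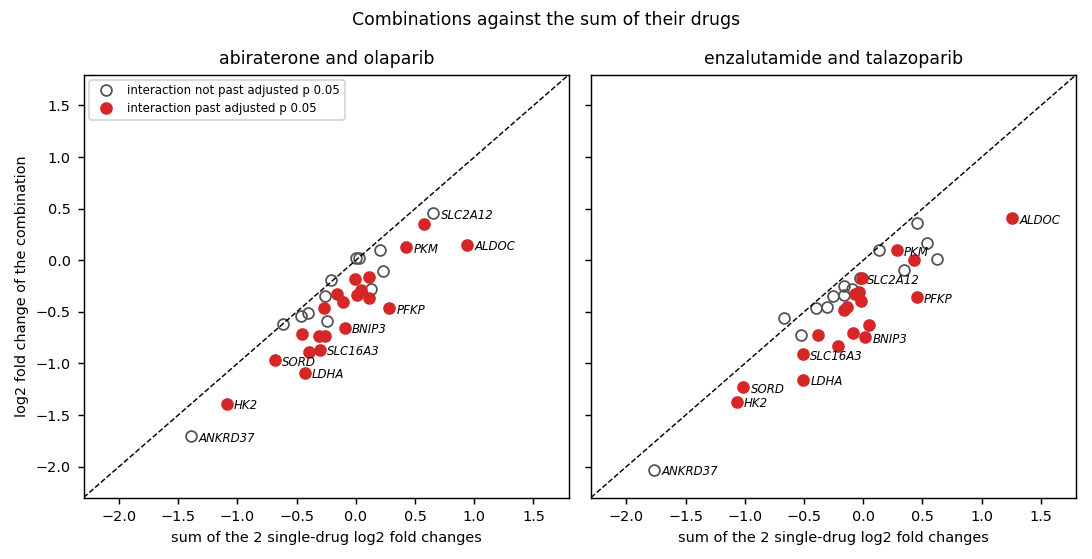
Log2 fold change of each combination against DMSO (vertical axis) against the sum of the log2 fold changes of its 2 drugs (horizontal axis), 1 point per gene, for both pairs, with SLC2A3, SLC2A10 and CA9 left out for their low counts. Filled points have a called interaction and all lie below the dashed line of equal values.

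In the time course, the direction of the olaparib effect differed between day 1 and day 5. After 1 day of 1 µM olaparib 12 of 37 genes changed, where 15.8% of all genes tested did, and 11 fell, against 9.52%, and 1 rose, against 6.30%. After 1 day at 5 µM 28 changed, against 45.0% of all genes, and 22 fell, against 23.4%, and 6 rose, against 21.6%. After 5 days at 1 µM 28 changed, against 46.3%, and 25 rose, against 23.4%, and 3 fell, against 22.9%. After 5 days at 5 µM 29 changed, against 68.2%, and 21 rose, against 34.4%, and 8 fell, against 33.9%. Of the called genes, 6 of 12 and 24 of 28 on day 1 and 24 of 28 and 29 of 29 on day 5 stayed called in every fit that left out 1 library, and without the filter on low counts 7 were called after 1 day at 1 µM. The lost calls that are not described elsewhere were PFKM after 1 day at 1 µM (5 of 6 fits), PFKFB4 and VEGFA after 1 day at 5 µM (2 and 1 fits) and PDK1 and PFKFB3 after 5 days at 1 µM (3 and 4 fits). Mitochondrial genes held 9.21 to 9.28% of counts with DMSO, 9.70 to 10.2% at 1 µM and 10.9 to 11.0% at 5 µM on day 1, and 8.24 to 8.38%, 10.6 to 11.0% and 14.3 to 14.6% on day 5, and the part of this share in the results was not tested. With scaling by total counts in place of TMM, 3 rose and 6 fell after 1 day at 1 µM, against 8.64% and 5.78% of all genes. After 1 day at 5 µM 9 then rose and 19 fell, against 27.8% and 18.3%. After 5 days 22 rose and 5 fell at 1 µM, against 21.2% and 25.8%, and 19 rose and 13 fell at 5 µM, against 29.3% and 39.9%. The median absolute log2 fold change of the called genes was 0.10 at 1 µM and 0.20 at 5 µM on day 1, and 0.20 and 0.46 on day 5. After 5 days at 5 µM the median over all 37 genes was 0.19, and that of all genes was -0.01. The DMSO cultures themselves changed in 21 genes from day 1 to day 5, where 24.5% of all genes did, with 7 higher, against 11.1%, and 14 lower, against 13.4%. Of these 12 stayed called in every fit that left out 1 library. With scaling by total counts 7 were higher, against 14.2% of all genes, and 7 lower, against 10.4%.

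On day 1 the largest called falls at 5 µM were in LDHA, SLC2A3 and HK2. SLC2A3 had 2.53, 2.64 and 3.12 CPM with DMSO, 2.41, 2.31 and 2.50 CPM at 1 µM, which did not pass, and 2.10, 2.09 and 1.86 CPM at 5 µM (-0.45, SE 0.13, edgeR adjusted p = 0.0050), below all DMSO libraries. LDHA had 1009, 986 and 990 CPM with DMSO, 850, 857 and 855 CPM at 1 µM and 674, 667 and 687 CPM at 5 µM, an ordered set with no overlap. Its log2 fold changes were -0.22 (SE 0.018, edgeR adjusted p = 6.1e-12) and -0.56 (SE 0.018, adjusted p = 7.2e-25). HK2 had 88.9, 82.6 and 85.5 CPM, then 77.5, 75.9 and 75.9 CPM, then 64.9, 66.2 and 61.9 CPM, with changes of -0.16 (SE 0.032) and -0.41 (SE 0.032). LDHB had 724, 705 and 706 CPM, then 667, 662 and 661 CPM, then 605, 611 and 609 CPM, with changes of -0.10 (SE 0.017) and -0.23 (SE 0.017). ENO1 fell by 0.10 and 0.28 and SLC2A1 by 0.13 and 0.30; the SLC2A1 call at 1 µM was lost without DMSO day 1 replicate 3 (-0.11). The 1 gene that rose at 1 µM was PFKL (0.11, SE 0.032), a call lost without DMSO day 1 replicate 1 (0.10) and without 1 µM replicate 3 (0.10). At 5 µM SLC2A12 rose from 3.61, 3.21 and 3.38 CPM to 6.15, 5.89 and 6.07 CPM (0.83, SE 0.092) and BNIP3L from 87.5, 83.6 and 89.2 CPM to 108, 112 and 107 CPM (0.33, SE 0.029).

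On day 5, HIF1A showed a clear order of doses. It had 185, 181 and 180 CPM with DMSO, 239, 246 and 245 CPM at 1 µM and 406, 421 and 413 CPM at 5 µM. The log2 fold changes were 0.42 (SE 0.025, edgeR adjusted p = 1.8e-16) and 1.18 (SE 0.025, adjusted p = 2.4e-31), or 2.27-fold at the higher dose. On day 1 HIF1A had 196, 180 and 188 CPM with DMSO, 180, 185 and 179 CPM at 1 µM, where it did not pass, and 172, 175 and 173 CPM at 5 µM (-0.11, SE 0.026). EPAS1 rose on day 5 from 1.01, 0.812 and 0.721 CPM to 1.31, 1.73 and 1.59 CPM (0.85, SE 0.20) and 2.02, 2.81 and 1.86 CPM (1.38, SE 0.20), from a low level. On day 1 at 5 µM EPAS1 had 0.51 (SE 0.21, adjusted p = 0.044), a call that was lost in 5 of the 6 fits that left out a library, the exception being the fit without DMSO day 1 replicate 2, with values of 0.38 to 0.55. The hydroxylase EGLN1 rose only slightly at 5 µM on day 5 (0.17, SE 0.032).

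ALDOC and SLC2A12 also rose with dose on day 5. ALDOC had 30.4, 30.4 and 30.1 CPM with DMSO, 52.4, 56.8 and 57.6 CPM at 1 µM and 94.2, 98.1 and 96.8 CPM at 5 µM, with log2 fold changes of 0.88 (SE 0.035) and 1.67 (SE 0.033, edgeR adjusted p = 2.8e-32). On day 1 ALDOC lay between 29.4 and 32.4 CPM in all 9 libraries and did not pass. SLC2A12 had 4.67, 4.17 and 4.76 CPM, then 9.12, 9.21 and 9.52 CPM, then 14.2, 16.4 and 16.1 CPM, with changes of 1.03 (SE 0.084) and 1.78 (SE 0.080). VEGFA had 112, 112 and 113 CPM, then 158, 162 and 166 CPM, then 220, 222 and 230 CPM, with changes of 0.53 (SE 0.027) and 0.99 (SE 0.027). BNIP3L had 90.3, 93.6 and 93.0 CPM, then 122, 121 and 121 CPM, then 169, 177 and 172 CPM (0.39, SE 0.028, and 0.91, SE 0.028). BNIP3 had 147, 148 and 141 CPM, then 172, 179 and 184 CPM, then 208, 215 and 220 CPM (0.30, SE 0.028, and 0.56, SE 0.028). In each of these genes the 3 groups of day 5 did not overlap.

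SORD had 1224, 1227 and 1212 CPM with DMSO on day 5, 1763, 1764 and 1741 CPM at 1 µM and 2054, 2113 and 2116 CPM at 5 µM, again without overlap (0.52, SE 0.014, and 0.78, SE 0.014). On day 1 SORD was slightly lower at 1 µM (-0.06, SE 0.014) and 5 µM (-0.16, SE 0.014), and the call at 1 µM was lost with scaling by total counts (-0.03). SLC2A1 had 44.4, 43.1 and 45.5 CPM, 46.9, 48.8 and 49.3 CPM and 54.2, 53.4 and 54.4 CPM on day 5 (0.12, SE 0.034, and 0.28, SE 0.034). PFKFB2 had 65.6, 67.8 and 66.2 CPM, 81.6, 79.6 and 80.6 CPM and 99.5, 103 and 103 CPM (0.28, SE 0.028, and 0.61, SE 0.028). ANKRD37 reached 7.48, 6.64 and 7.31 CPM at 1 µM and 7.03, 7.55 and 7.40 CPM at 5 µM, both above the 4.43 to 4.86 CPM of DMSO (0.64, SE 0.093, and 0.68, SE 0.093) and overlapping each other. ALDOA had 595, 591 and 599 CPM, 665, 687 and 699 CPM and 793, 803 and 818 CPM (0.20, SE 0.019, and 0.43, SE 0.019), and PKM had 1011, 997 and 1000 CPM, 1089, 1122 and 1116 CPM and 1122, 1164 and 1140 CPM (0.15, SE 0.016, and 0.19, SE 0.016).

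The 8 genes that fell after 5 days at 5 µM included both lactate dehydrogenases. LDHB had 674, 677 and 664 CPM with DMSO, 660, 640 and 650 CPM at 1 µM and 437, 428 and 439 CPM at 5 µM, 1.54-fold lower at the higher dose (-0.63, SE 0.017, edgeR adjusted p = 5.3e-28). Its fall at 1 µM (-0.05, SE 0.017) was lost without DMSO day 5 replicate 1 (-0.04) or 2 (-0.04) and without 1 µM replicate 2 (-0.03) or 3 (-0.05). LDHA had 944, 915 and 924 CPM, 951, 948 and 984 CPM and 778, 803 and 803 CPM, a fall of 0.22 at 5 µM (SE 0.018). Its small rise at 1 µM (0.05, SE 0.018, adjusted p = 0.017) was lost without DMSO day 5 replicate 2 (0.04) or 3 (0.05) and without 1 µM replicate 3 (0.03). PFKP fell by 0.46 (SE 0.036) at 5 µM and rose by 0.17 (SE 0.034) at 1 µM. SLC2A3 had 3.44, 3.20 and 3.11 CPM with DMSO and 2.02, 2.55 and 2.11 CPM at 5 µM (-0.55, SE 0.13, adjusted p = 0.00034), and 3.62, 3.17 and 3.52 CPM at 1 µM, which did not pass. HK2 had 72.2, 71.5 and 72.9 CPM with DMSO, 70.2, 68.8 and 70.2 CPM at 1 µM, which did not pass, and 62.5, 68.5 and 63.3 CPM at 5 µM (-0.16, SE 0.033). Further rises on day 5 were those of PFKFB4 (0.44, SE 0.055, at 1 µM and 0.48, SE 0.055, at 5 µM) and PFKFB3 (0.24, SE 0.042, at 5 µM), and PDK3 rose at 1 µM (0.36, SE 0.030) but had -0.06 at 5 µM and did not pass. ENO1, GPI and TPI1 fell at 5 µM by 0.22, 0.07 and 0.08.

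The difference between days was tested as an interaction. At 1 µM it was called in 23 genes, where 29.8% of all genes were called, positive in all 23, against 15.6%, and negative in 0 by edgeR, against 14.2%, with 27 genes at an unadjusted p under 0.05. With scaling by total counts 21 were positive, against 11.6% of all genes, and 1, PFKM (-0.08), was negative, against 19.4%. On leaving out a library, the calls of GPI at 1 µM and of ENO1 and PDK1 at 5 µM were lost in 4, 2 and 2 of 12 fits. At 5 µM it was called in 30, against 54.9%, positive in 28, against 27.2%, and negative in 2, against 27.7%. The values at 5 µM were 1.59 for ALDOC (SE 0.051), 1.30 for HIF1A (SE 0.036), 0.95 for SLC2A12 (SE 0.12), 0.94 for SORD (SE 0.020) and 0.90 for VEGFA (SE 0.038). The negative ones were LDHB (-0.40, SE 0.024) and PFKP (-0.34, SE 0.050). With scaling by total counts the median of all genes in this interaction moved from -0.02 to -0.15. The split became 22 positive and 5 negative, against 18.6% and 37.4% of all genes. The signs of GPI, GAPDH, PGAM1, ENO1 and PDK1, whose values were 0.12, 0.08, 0.13, 0.06 and 0.12, then turned negative. At 5 µM 10 of 37 genes fell on day 1 and rose on day 5, where 4.12% of all genes tested did, namely SLC2A1, HK1, PFKFB3, ALDOA, PKM, SLC16A1, SLC16A3, EGLN1, HIF1A and SORD. Of these 9 kept both calls in every fit that left out a library. The day 1 call of HK1 was lost in 5 of 6 such fits (-0.05 to -0.04), and with scaling by total counts the day 1 call of HK1 (-0.0027) and the day 5 call of SLC16A3 (0.05) were lost. At 1 µM 6 did so, against 0.870% of all genes, namely SLC2A1, PGK1, PGAM1, LDHA, SLC16A1 and SORD, of which SORD alone kept both calls in every fit that left out a library, and its day 1 call was lost with scaling by total counts. The day 1 call was lost in 1 such fit for SLC2A1, in 4 for PGK1 (-0.07 to -0.06), in 3 for PGAM1 (-0.05 to -0.04) and in 4 for SLC16A1 (-0.08 to -0.05), and the day 5 call of LDHA in 3.

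**Figure D5:**
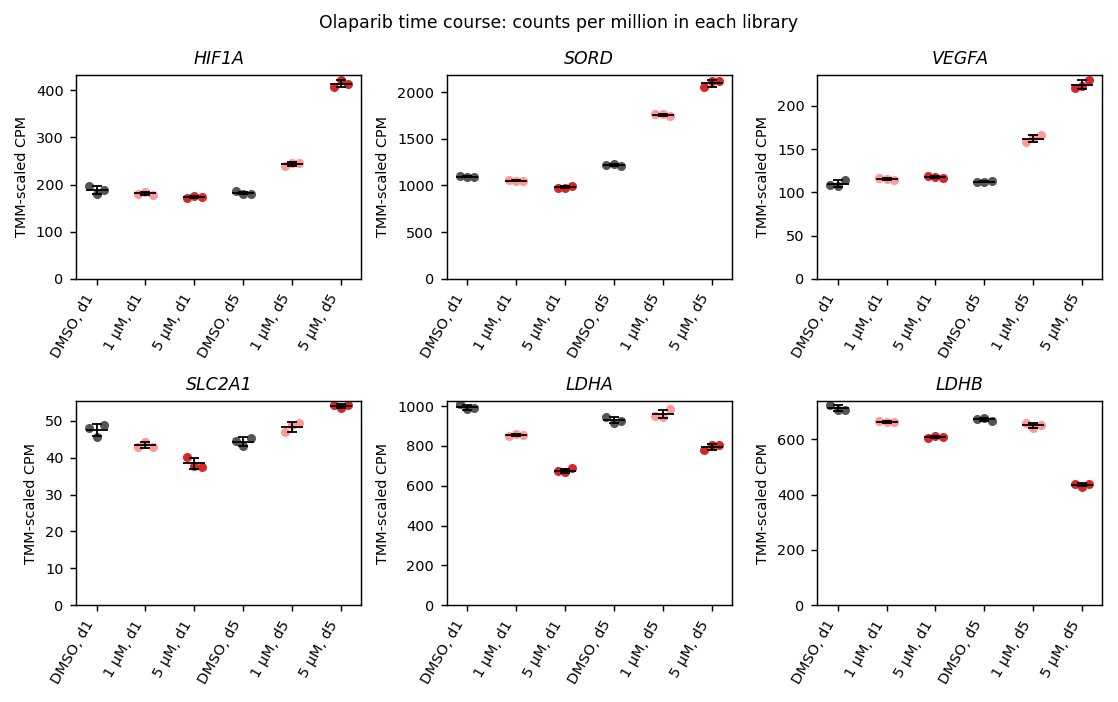
TMM-scaled CPM in each time course library (points) for HIF1A, SORD, VEGFA, SLC2A1, LDHA and LDHB, by day and treatment, with the mean and SD of 3 libraries as bars. HIF1A is at 406 to 421 CPM after 5 days of 5 µM olaparib and between 172 and 246 CPM in all other groups.

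Treatment with 1 µM olaparib for 5 days was run in both experiments, each with DMSO of its own. Over 36 genes tested in both, 33 had the same sign, where 78.2% of all genes did, and 20 were called in both in the same direction, where 30.1% of all genes were. Pearson's r across these genes was 0.737, and 0.494 across all genes, as a description of genes that are not independent. The effect differed between the experiments in 2 genes, where 1.97% of all genes did, with both values lower in the panel, against 1.17% of all genes, and 0 higher by edgeR, against 0.802%. The unadjusted p was under 0.05 for 10. HIF1A rose by 0.15 in the panel and 0.42 in the time course (difference -0.29, SE 0.033, edgeR adjusted p = 1.7e-05), and SORD by 0.42 and 0.52 (difference -0.12, SE 0.023, adjusted p = 0.0051). Both differences were called in all 12 fits that left out a library, and that of SORD was lost without the filter on low counts (-0.11). The levels of DMSO on day 5, which were scaled separately in the experiments, were 8.82 and 4.53 CPM for SLC2A12, 50.0 and 30.3 CPM for ALDOC, 191 and 145 CPM for BNIP3 and 168 and 112 CPM for VEGFA.

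Other genes of the same pathways are given by count, and the genes named are among those with the largest called changes. Of 24 further genes of glucose transport and glycolysis, 15 were tested in the panel, and 6 rose and 1 fell with abiraterone, 5 rose and 4 fell with enzalutamide, 6 rose and 2 fell with olaparib and 8 rose and 1 fell with talazoparib. Over all genes tested 25.8% rose and 27.1% fell with abiraterone, 27.0% and 26.3% with enzalutamide, 19.6% and 16.0% with olaparib and 18.4% and 15.4% with talazoparib. ENO2, the neuronal enolase, rose by 2.66 (SE 0.095) and 2.95 (SE 0.093) on the log2 scale with the ARPi. The inositol transporter SLC2A13 rose by 0.74 and 1.54 with the ARPi and fell by 1.20 and 1.12 with the PARPi of the panel. It fell by 1.55 (SE 0.066) after 5 days at 5 µM olaparib. TXNIP, an arrestin-like protein that restrains glucose uptake, rose with every treatment on day 5, from 0.86 with panel olaparib to 1.76 with enzalutamide plus talazoparib. TIGAR, a p53 target that lowers fructose-2,6-bisphosphate, rose by 0.95 (SE 0.042) after 5 days at 5 µM olaparib.

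Of 14 genes of pyruvate fate, 11 fell with abiraterone and 11 with enzalutamide, while 3 and 2 rose, where 27.1% and 26.3% of all genes fell and 25.8% and 27.0% rose. With each PARPi of the panel 2 rose and 4 fell, where 19.6% of all genes rose and 16.0% fell with olaparib and 18.4% rose and 15.4% fell with talazoparib. MPC2, a subunit of the mitochondrial pyruvate carrier, fell by 1.53 (SE 0.025) and 1.74 (SE 0.025), and DLAT, the E2 subunit of pyruvate dehydrogenase, by 0.69 and 0.68. After 5 days at 5 µM olaparib 10 fell, against 33.9% of all genes, and 3 rose, against 34.4%, and the monocarboxylate transporter SLC16A7 fell by 2.02 (SE 0.089) and EMB, a transporter chaperone, by 1.20 (SE 0.035). Of 9 tested genes of oxygen sensing, 3 rose and 3 fell with each ARPi, where the shares of all genes were 25.8% and 27.1% with abiraterone and 27.0% and 26.3% with enzalutamide. Among them was ARNT2, a HIF partner, which rose by 1.89 (SE 0.099) and 1.98 (SE 0.098).

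Of 27 tested further HIF targets, 14 fell and 5 rose with abiraterone, 13 fell and 7 rose with enzalutamide, 14 rose and 4 fell with panel olaparib and 17 rose and 2 fell with talazoparib. Of all genes 27.1% fell and 25.8% rose with abiraterone, 26.3% fell and 27.0% rose with enzalutamide, 19.6% rose and 16.0% fell with olaparib and 18.4% rose and 15.4% fell with talazoparib. After 5 days at 5 µM olaparib 17 rose, against 34.4%, and 8 fell, against 33.9%. The collagen cross-linking enzyme LOX fell by 3.65 (SE 0.15) and 3.67 (SE 0.15) with the ARPi, whereas the carbonic anhydrase CA12 rose by 2.05 and 1.81. NDRG1, a stress gene that is also androgen-responsive, rose by 1.54 (SE 0.087) with panel olaparib, by 1.91 (SE 0.035) after 5 days at 1 µM in the time course and by 2.74 (SE 0.036) at 5 µM. After 5 days at 5 µM PPFIA4 rose by 1.59 (SE 0.14), whereas PLOD2, which rose by 1.14 (SE 0.40) with talazoparib, fell by 1.67 (SE 0.062). STC2 fell by 0.70 (SE 0.045) with panel olaparib and by 0.78 (SE 0.032) after 5 days at 1 µM in the time course.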

How the data were processed

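Per the labels and the study's methods, the authors trimmed reads with Trim Galore, aligned them to GRCh38 with STAR and deposited Salmon's estimated counts per gene of a GENCODE release later than the one used here, written as whole numbers without normalization. How they were rounded is not given in the sources used here. Symbols and positions came from GENCODE 44, which left 20849 of 63187 identifiers without a symbol, and lengths from the MANE Select transcripts. The 2 experiments were fitted separately in edgeR 4.0.16 (R 4.3.3) with TMM scaling, filterByExpr by group and robust quasi-likelihood tests, and p-values were adjusted (Benjamini-Hochberg) across 18625 genes in the panel and 18502 in the time course. Their 12 libraries of DMSO and 1 µM olaparib on day 5 were fitted jointly over 17833 genes to compare the experiments.

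The genes and lists were chosen with earlier results of these data known, so their directions are not independent evidence. Values per library are given for genes with a called absolute log2 fold change of at least 1 against DMSO in any comparison, for HIF1A, EPAS1, SLC2A1, SLC2A3, HK2, LDHA, PKM and SORD, and for 6 more with the smallest interaction p. From other lists at most 3 genes per comparison with at least 100 counts were eligible. Alternatives were RLE scaling, total-count scaling, no filter, a filter at 1 CPM in 3 libraries, DESeq2 1.42.0, the compared groups alone, the replicate number as a block, and leaving out each library. Replicate numbers do not come with a shared batch or day in the labels.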

Additional observations from a re-analysis of the deposited data

Results flagged for a closer look

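The effect of olaparib differed between day 1 and day 5 by an interaction test in 23 of the 37 genes at 1 µM and 30 at 5 µM (edgeR's quasi-likelihood test, adjusted p under 0.05 over all genes). At 1 µM the differences, as the day 5 minus the day 1 log2 fold change, were 0.98 for EPAS1, 0.83 for SLC2A12, 0.81 for ALDOC, 0.58 for SORD, 0.57 for ANKRD37, 0.47 for HIF1A and 0.46 for VEGFA. Those of BNIP3, BNIP3L, PFKFB2, LDHA, SLC2A1, ALDOA and PKM were 0.33, 0.32, 0.29, 0.27, 0.25, 0.21 and 0.17. At 5 µM they were 1.59 for ALDOC, 1.30 for HIF1A, 0.95 for SLC2A12, 0.94 for SORD, 0.90 for VEGFA, 0.87 for EPAS1 and 0.71 for ANKRD37. SLC2A1, BNIP3L, ALDOA, PFKFB2, BNIP3, LDHA, PKM and HK2 had 0.59, 0.58, 0.58, 0.56, 0.56, 0.33, 0.32 and 0.26. LDHB was the exception among the genes given by library, with -0.40. The EPAS1 differences rest on levels under 3 CPM, and were no longer called without DMSO day 1 replicate 2 at either dose (0.82 at 1 µM and 0.70 at 5 µM) or without 5 µM day 5 replicate 2 (0.68).

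The effect of 1 µM olaparib on day 5 differed between the panel and the time course in 2 genes, HIF1A (panel minus time course -0.29) and SORD (-0.12).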

How the results depend on the processing

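Over 9670 comparisons of a gene's result with its value under an alternative, 9245 kept direction and call, 284 lost the call, 136 gained it and 5 changed sign. The sign changes came with total-count scaling in the interaction of 5 µM olaparib with day, where GPI became -0.0059, GAPDH -0.046, PGAM1 -0.0017, ENO1 -0.069 and PDK1 -0.014; by construction this scaling moves every value of a comparison together. After 1 day at 1 µM, 7 genes were called without the filter on low counts, against 12, and over all genes 1932 were called without DMSO day 1 replicate 1, against 2928. In the comparison of the 2 experiments 6 genes were called without the filter and 6 by DESeq2, and leaving out a library gave 2 to 4, with 4 without panel DMSO replicate 1 and 4 without panel DMSO replicate 3. Over all genes that comparison called 352 of 17833, or 672 of 35525 without the filter and 657 of 35525 by DESeq2. Leaving out a library gave 155 to 773, lowest without panel olaparib replicate 3 and highest without panel DMSO replicate 3. The cause of this range was not tested. Leaving out a library moved the number of genes called most in the DMSO comparison of days, from 21 to between 14 and 21. RLE scaling moved no comparison's share of rises by over 10 percentage points over all genes, and total-count scaling moved 9 of 18.

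With the replicate number as a block, 28 genes were called with abiraterone, 30 with enzalutamide, 22 with panel olaparib and 25 with talazoparib. Over all 18625 genes tested, 9808, 9852, 6534 and 6229 were called in these comparisons. Among the listed genes, the call of PFKFB4 with abiraterone plus olaparib (-0.28) was the only one lost. Over all genes tested, samples that shared a number did not deviate together, with correlations of -0.069 to 0.064 in the panel and -0.133 to 0.116 in the time course. For PGK1, BNIP3, BNIP3L, ALDOC, PFKFB4, LDHA, ANKRD37, VEGFA and PDK1, the median log2 deviation from the group mean was also taken. In the panel it ran from 0.21 in replicate 1 to -0.20 in replicate 3 with DMSO, and from 0.17 to -0.13 with olaparib. With enzalutamide it ran from 0.08 to -0.09. It ran from -0.09 to 0.08 with abiraterone and from -0.10 to 0.01 with talazoparib. Depth limits SLC2A3, SLC2A10 and PDK4 with an ARPi, which held 0 to 8 counts over a group, and ADM and CA9, which held 7 to 33 counts over a panel group.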
